A study of Arabidopsis thaliana with 6 samples.

Results

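The meiosis genes described here are 42 *Arabidopsis thaliana* loci that act in double-strand break formation, strand exchange, the chromosome axis, synapsis, crossover formation, sister chromatid cohesion and the meiotic cell cycle. They were picked by gene ID, with earlier results of these data known, and all 42 were found in the count files. Each had counts in all 6 libraries, between 12 and 1686 per library, and they stand among 25458 genes counted in 1 or more libraries, out of 33610 genes in the files. By what is known of them, 28 act mainly in meiosis and 5, among them *XRCC3*, *COM1* and *GMI1*, also serve DNA repair in somatic cells. Another 7 were grouped here as genes of cell division (*OSD1*, *SGO1*, *SGO2*, *JASON*, *PS1*, *TES* and *ATK1*). This grouping is not a claim that they act outside meiosis, since *JASON* and *TES*, for example, have roles in male meiosis. The 2 loci AT1G60460 and AT1G12790 carry no name in the annotation used here and are given by ID, with no role.

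The study mapped DNA binding by complexes of SEPALLATA3 (SEP3), a MADS transcription factor that joins the protein complexes of floral organ identity. Its RNA-seq served to list genes regulated by SEP3. Polyadenylated RNA of inflorescences, the meristem together with buds no older than stages 10-11, was sequenced from plants raised side by side in long days. The 6 libraries were 2 of *sep1 sep2 sep3 SEP3*, 2 with the genotype label *sep1 sep2 sep3*, called the libraries labelled triple mutant here, and 2 of *sep1 sep2*. Both *sep1 sep2 sep3 SEP3* libraries come from the mutant of all 3 *SEP* genes expressing *SEP3* again, one library from each of 2 independent lines. All 6 libraries carry the *sep1* and *sep2* mutations, so *sep1 sep2* keeps its own *SEP3* and no group is wild type. The alleles, the age of the plants and the promoter that drives *SEP3* in the lines are not given in the sources used here. The labels do not say that replicates came from separate plants, so p-values measure the spread between these libraries only.

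Library totals ran between 24000063 and 31263376 counts, and TMM normalization factors between 0.963 and 1.04. Among counts of 1 to 20, between 85.9 and 88.3% were even numbers in each library, as counting both reads of a pair gives, so the counts overstate the number of molecules. *SEP3* (AT1G24260) stood at 489 and 332 CPM (counts scaled to library size, after TMM normalization) in *sep1 sep2 sep3 SEP3* lines 1 and 2, at 150 and 151 CPM in the libraries labelled triple mutant, and at 130 and 136 CPM in *sep1 sep2*. It was higher in the lines than in the libraries labelled triple mutant (log2 fold change 1.45 ± 0.15 SE, FDR 9.86e-06, edgeR), but the libraries labelled triple mutant had no fewer *SEP3* counts than *sep1 sep2* (log2 fold change 0.17 ± 0.15 SE, FDR 0.502, edgeR). The genotype of these libraries rests on the label, as does every direction drawn from them.

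Meiosis reduces the chromosome number in the pollen mother cells of the anther and in the megaspore mother cell of the ovule. It starts with breaks made by the SPO11 complex, which recombinases such as DMC1 repair on the homologous chromosome while ASY1 and ZYP1 organise the axes and their synapsis, and a subset of the repair events mature into crossovers. Cohesin with the meiotic subunit SYN1 joins sister chromatids, and cyclins and regulators such as TDM1 drive the passage through both divisions. Meiocytes are a small minority of the cells of an inflorescence, and in bulk libraries fewer meiocytes and less RNA per meiocyte cannot be told apart.

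SEP3 and its partners bind CArG boxes, so the stretch before the start of the members was read from the RefSeq genome TAIR10.1 and searched for them. All 42 members were found in this annotation. The sequences of *ASY1* and *MMD1* are shown because both genes differed in level in 2 comparisons and their 250 bases before the annotated start hold no other gene. *ASY1* (AT1G67370) lies on the minus strand with its window at chr1:25243838-25244087, and *MMD1* (AT1G66170) on the minus strand with its window at chr1:24641495-24641744. Both are written 5′ to 3′ towards the gene, and capitals mark copies of the repeated word CACTAAATA.
ASY1: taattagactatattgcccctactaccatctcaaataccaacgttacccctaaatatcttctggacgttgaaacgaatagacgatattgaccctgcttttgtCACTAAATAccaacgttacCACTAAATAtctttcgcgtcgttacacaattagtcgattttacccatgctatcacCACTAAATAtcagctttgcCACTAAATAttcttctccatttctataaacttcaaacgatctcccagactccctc
MMD1: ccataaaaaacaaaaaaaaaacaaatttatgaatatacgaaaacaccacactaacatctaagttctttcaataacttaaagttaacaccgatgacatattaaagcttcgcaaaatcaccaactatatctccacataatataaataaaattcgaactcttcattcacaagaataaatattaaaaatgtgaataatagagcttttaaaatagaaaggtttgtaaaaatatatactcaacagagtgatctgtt
The *ASY1* window had 38.0% G and C and held CACTAAATA 4 times, the *MMD1* window had 25.2% and none. Searched on both strands, the word stood in 119 of 27444 protein-coding promoters of this length (0.434%), in 1 of the 42 members, and no promoter other than that of *ASY1* held as many copies. The word was chosen after the sequence was seen, and no function is assigned to it. A complete CArG box (palindromic, so the same on both strands) was in the 250-base window of 0 of 42 members and of 2.52% of the 27444 promoters. In 1000 bases it was found before 1 of 42 members (AT1G60460) and in 7.21% of promoters. With up to 1 mismatch, 13 of 42 members (31.0%) and 34.7% of promoters had one in 250 bases, among them *ZIP4* as the 1 of 10 members with a called change. In 1000 bases, 28 of 42 members (66.7%) and 76.9% of promoters had one, among them 6 of these 10. These counts describe letters in windows only. The study measured binding itself, and those data were not used here. It names *GMI1* and *SPL* (SPOROCYTELESS) among the genes bound in vitro by SEP3 together with AGAMOUS.

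Across all libraries the members had mean levels between 0.759 CPM (*SPO11-2*) and 49.9 CPM (*ATK1*). The mean was lowest in the libraries labelled triple mutant for 33 of 42 members and highest in *sep1 sep2 sep3 SEP3* for 38, and 29 had the order *sep1 sep2 sep3 SEP3*, then *sep1 sep2*, then the libraries labelled triple mutant. Summed over the 42 genes, the level was 684 and 676 CPM in the 2 *sep1 sep2 sep3 SEP3* lines, 484 and 491 CPM in the libraries labelled triple mutant, and 552 and 590 CPM in *sep1 sep2*. The 3 pairs of sums did not overlap. These counts and sums were not set beside those of all genes, so they do not show what is particular to the members.

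**Figure D1:**
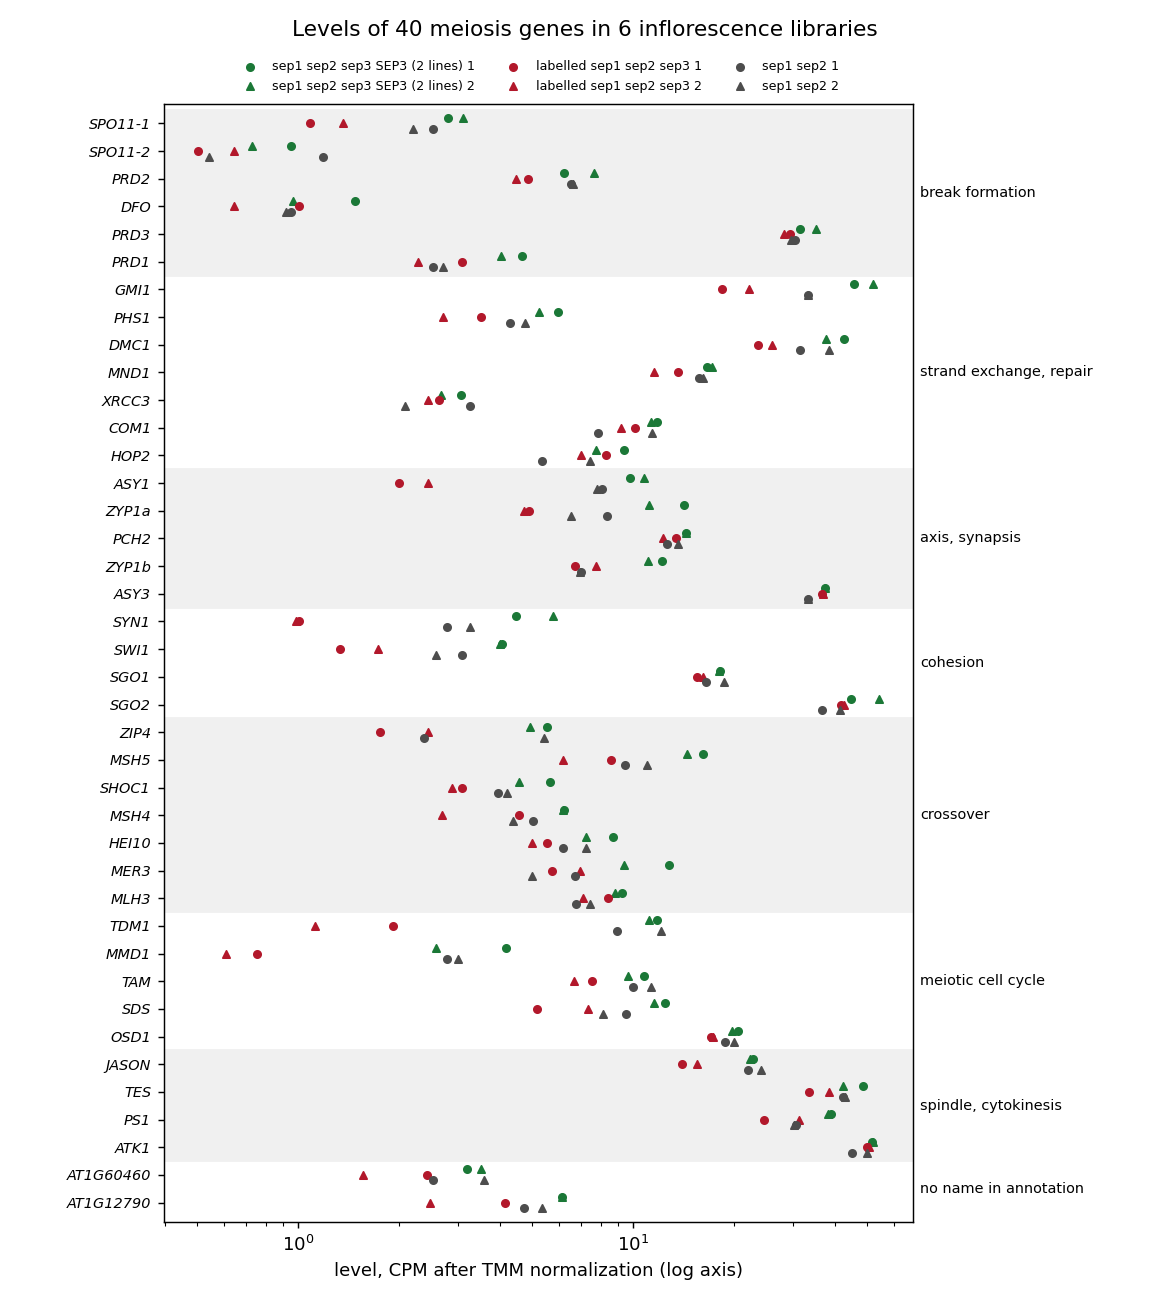
Level of 40 meiosis genes in each of the 6 libraries, in CPM after TMM normalization on a log axis, with genes grouped by role. Circles are replicate or line 1 and triangles are replicate or line 2. The red points of the libraries labelled triple mutant stand apart to the left of the other points of *TDM1*, *MMD1*, *SYN1* and *ASY1*, whereas the 6 points of *PCH2*, *ATK1* and *ASY3* lie close together.

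The libraries labelled triple mutant had lower RNA of 4 meiosis genes than *sep1 sep2*. There, *TDM1*, *MMD1*, *ASY1* and *SYN1* were DE (an FDR under 0.05 and a log2 fold change beyond 1 in either direction, edgeR's quasi-likelihood test over 25458 genes) and lower, by 6.98-fold, 4.23-fold, 3.55-fold and 3.02-fold. None of the 42 was DE and higher, none had an unadjusted p under 0.05 in that direction, and DESeq2 gave 4 and 0 as well. Among all genes tested, 7.30% were DE and lower and 0.939% were DE and higher, against 9.52% and 0.00% of the members, so the count of lower members was close to that of all genes. By FDR alone 8 members (19.0%) were lower, against 10.0% of all genes, the 4 others being *GMI1*, *JASON*, *TAM* and *DMC1*. The log2 fold change was below 0 for 33 members, and their median was -0.37, beside -0.03 over all genes. Both libraries labelled triple mutant were below both *sep1 sep2* libraries for 24 members (57.1%), against 29.8% of all genes and 33.9% of the 14156 genes with a mean level in the range of the members, and above both for 3 (*ASY3*, *SGO2* and *ATK1*).

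In *sep1 sep2 sep3 SEP3*, 10 meiosis genes were DE and higher than in the libraries labelled triple mutant. They were *TDM1*, *SYN1*, *MMD1*, *ASY1*, *ZYP1a*, *SWI1*, *ZIP4*, *SPO11-1*, *GMI1* and *MSH5*, with folds between 2.08 (*MSH5*) and 7.61 (*TDM1*). This was 23.8% of the members, against 5.74% of all genes, and DESeq2 also gave 10. The members were chosen with earlier results of these data known, so the share describes this list only. None was DE and lower, none had an unadjusted p under 0.05 in that direction, and DESeq2 gave 0, against 0.550% of all genes. By FDR alone 18 members were higher (42.9%, against 7.30% of all genes). All 42 log2 fold changes were above 0, between 0.02 (*ASY3*) and 2.93 (*TDM1*), with a median of 0.61 beside 0.02 over all genes. Both *sep1 sep2 sep3 SEP3* lines were above both libraries labelled triple mutant for 40 members (95.2%), against 26.6% of all genes and 30.0% of the genes in the same range of levels. The exceptions were *DFO* and *HOP2*. Both comparisons rest on the same 2 libraries labelled triple mutant, so they are not independent of each other.

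**Figure D2:**
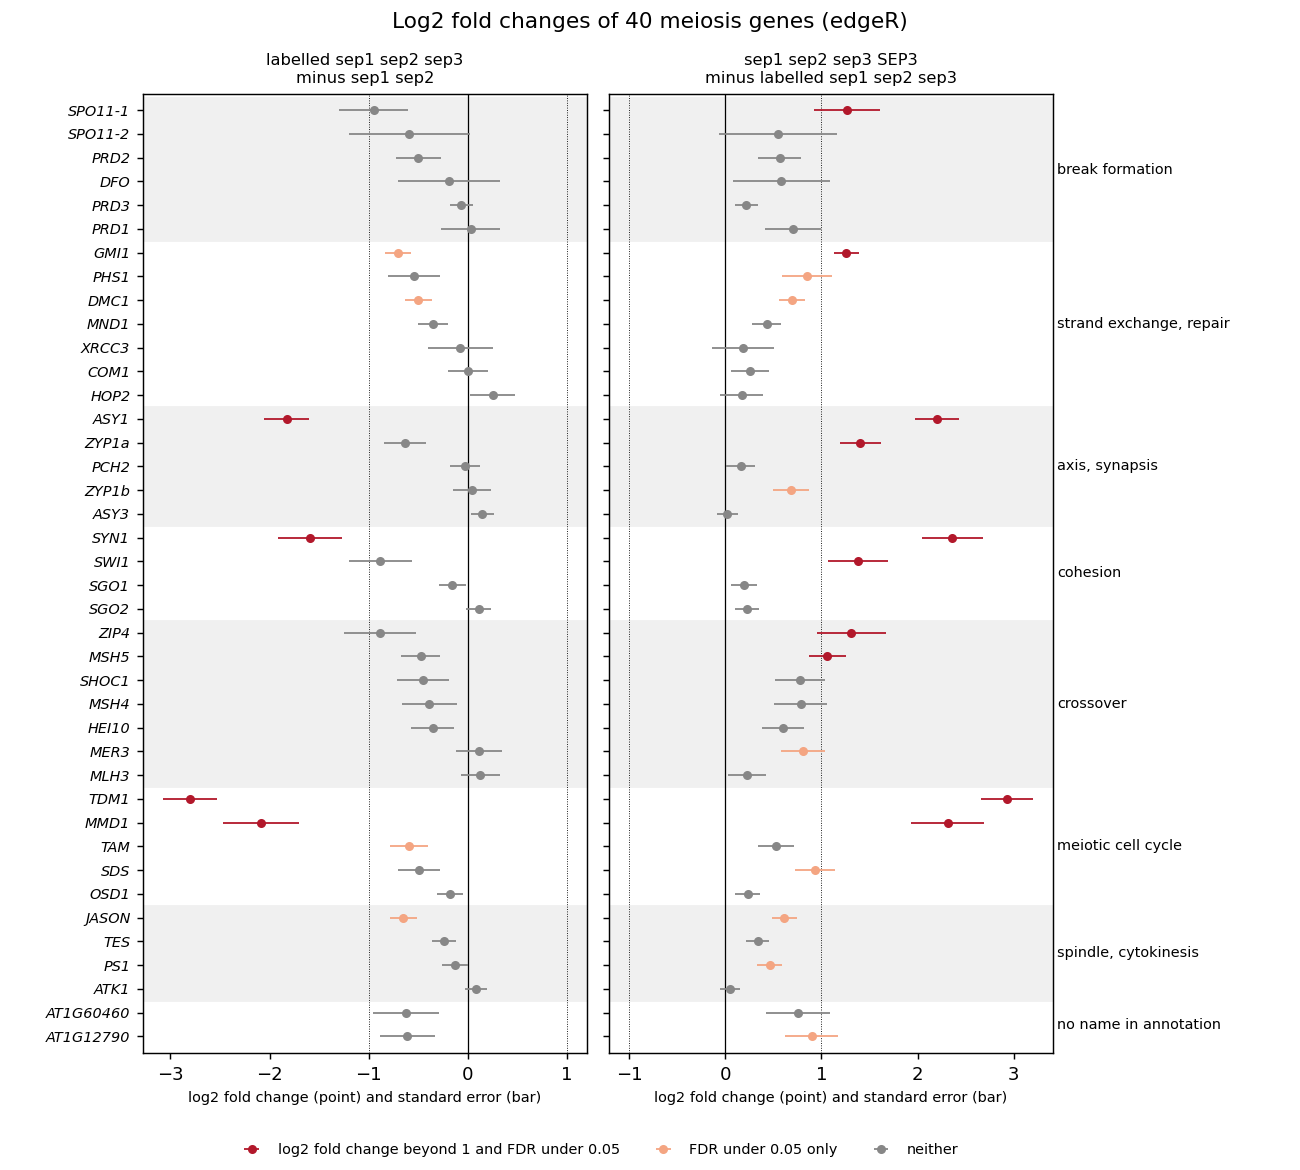
Log2 fold change from edgeR (point) of 40 meiosis genes, with a standard error (bar) derived from the test statistic. The left panel shows the libraries labelled triple mutant over *sep1 sep2*, the right panel *sep1 sep2 sep3 SEP3* over the libraries labelled triple mutant. Dotted lines mark -1 and 1, dark red points are DE (4 on the left, 10 on the right) and light points passed the FDR alone. All points on the right lie above 0.

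Of the genes for break formation, only *SPO11-1* was DE. *SPO11-1*, a catalytic subunit of the break-forming complex, stood at 2.79 and 3.10 CPM in *sep1 sep2 sep3 SEP3*, 1.09 and 1.36 CPM in the libraries labelled triple mutant and 2.53 and 2.21 CPM in *sep1 sep2*. Its 2 low libraries were those labelled triple mutant, and they overlapped with neither other genotype. It was higher in the lines (log2 fold change 1.26 ± 0.34 SE, FDR 0.0243, edgeR), and its log2 fold change against *sep1 sep2* was -0.95 ± 0.35 (FDR 0.0811). The call in the lines was held in 6 of 11 other settings, with FDR values between 0.0262 and 0.157. *SPO11-2*, its partner subunit, was at 0.501 to 1.19 CPM over all 6 libraries, with log2 fold changes of 0.55 ± 0.61 SE in the lines and -0.59 ± 0.62 in the libraries labelled triple mutant. *PRD1*, *PRD2*, *PRD3* and *DFO*, which are required for break formation, had log2 fold changes between -0.50 and 0.03 in the libraries labelled triple mutant relative to *sep1 sep2* and between 0.22 and 0.70 in the lines, none past the FDR threshold. *PRD3* had 28.1 to 35.2 CPM over the 6 libraries.

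Of the genes for strand exchange and repair, *GMI1* was DE in the lines, and *DMC1* and *PHS1* passed the FDR alone, *PHS1* in 2 of 11 other settings. *GMI1*, an SMC-like protein gene induced by DNA damage that acts in somatic homologous recombination, stood at 45.6 and 51.9 CPM in *sep1 sep2 sep3 SEP3*, 18.5 and 22.2 CPM in the libraries labelled triple mutant and 33.2 and 33.3 CPM in *sep1 sep2*. The 3 genotypes did not overlap, and all 3 differences passed the FDR: log2 fold changes were 1.26 ± 0.13 SE for the lines over the libraries labelled triple mutant (FDR 1.15e-05), -0.71 ± 0.13 for those libraries over *sep1 sep2* (FDR 0.00167) and 0.55 ± 0.13 for the lines over *sep1 sep2* (FDR 0.0279, all edgeR). The last passed the FDR in 6 of 11 other settings, with FDR values between 0.00815 and 0.198, and the 2 others were past it in all 11. *DMC1*, the recombinase made for meiosis, had 42.5 and 37.7 CPM in *sep1 sep2 sep3 SEP3*, 23.6 and 26.0 CPM in the libraries labelled triple mutant and 31.5 and 38.6 CPM in *sep1 sep2*. Its log2 fold changes were 0.69 ± 0.13 (FDR 0.00278) in the lines and -0.50 ± 0.13 (FDR 0.0203) in the libraries labelled triple mutant, both past the FDR and short of the fold threshold. The difference in the lines passed the FDR in all 11 other settings, that in the libraries labelled triple mutant in 7. For *DMC1* the libraries labelled triple mutant lay below the 4 others, which overlapped.

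*PHS1*, needed in maize and *Arabidopsis* for homologous pairing, was higher in the lines by FDR alone (log2 fold change 0.85, FDR 0.0432), while *HOP2* and *MND1*, partners that assist the recombinases, had log2 fold changes of 0.17 and 0.43 in the lines and 0.25 and -0.35 in the libraries labelled triple mutant, none past the FDR.

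The other members that also act in somatic repair were not DE. *XRCC3*, which acts in strand exchange, had 3.07 and 2.66 CPM in *sep1 sep2 sep3 SEP3*, 2.63 and 2.44 CPM in the libraries labelled triple mutant and 3.25 and 2.08 CPM in *sep1 sep2*. *COM1*, which processes break ends, had 11.8 and 11.3 CPM, 10.1 and 9.19 CPM, and 7.84 and 11.4 CPM in the same order of genotypes. For *XRCC3* and *COM1* the *sep1 sep2* libraries enclosed those labelled triple mutant. Their log2 fold changes were 0.18 and 0.26 in the lines (FDR 0.826 and 0.519) and -0.07 and 0.00 in the libraries labelled triple mutant (FDR 0.936 and 1, edgeR).

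Of the 5 axis and synapsis genes, *ASY1* moved most. *ASY1*, the HORMA-domain protein of the unsynapsed axis, had 9.80 and 10.8 CPM in *sep1 sep2 sep3 SEP3*, 2.01 and 2.44 CPM in the libraries labelled triple mutant and 8.08 and 7.79 CPM in *sep1 sep2*. The libraries labelled triple mutant were far below the rest, with log2 fold changes of 2.20 ± 0.23 SE in the lines (FDR 1.01e-05, edgeR) and -1.83 ± 0.23 relative to *sep1 sep2* (FDR 5.69e-05). *ASY3*, its partner on the axis, had 33.2 to 37.5 CPM over all 6 libraries, and *PCH2*, annotated as a pachytene checkpoint-like protein, had 12.2 to 14.4 CPM. Neither passed the FDR in any comparison.

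*ZYP1a* and *ZYP1b* are neighbouring copies on opposite strands of chromosome 1 that encode the transverse filament of the synaptonemal complex. *ZYP1a* had 14.2 and 11.2 CPM in *sep1 sep2 sep3 SEP3*, 4.89 and 4.71 CPM in the libraries labelled triple mutant and 8.35 and 6.54 CPM in *sep1 sep2*. *ZYP1b* had 12.2 and 11.0 CPM, 6.68 and 7.73 CPM, and 7.01 and 6.95 CPM in the same order. *ZYP1a* was DE and higher in the lines (log2 fold change 1.40 ± 0.21 SE, FDR 0.000388, edgeR). *ZYP1b* passed the FDR alone (0.69 ± 0.19, FDR 0.0265), in 6 of 11 other settings as well. Relative to *sep1 sep2*, the libraries labelled triple mutant had log2 fold changes of -0.63 ± 0.21 for *ZYP1a* (FDR 0.0604) and 0.05 ± 0.19 for *ZYP1b* (FDR 0.926). The level of *ZYP1a* over that of *ZYP1b* was 1.17 and 1.01 in *sep1 sep2 sep3 SEP3*, 0.731 and 0.610 in the libraries labelled triple mutant and 1.19 and 0.940 in *sep1 sep2*, lowest in the libraries labelled triple mutant without overlap. Reads that match both copies equally were not counted, so these levels come from the parts where the copies differ and the split between them is uncertain.

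Cohesion genes divided into a pair that was DE and a pair that was not. *SYN1*, the meiotic cohesin subunit also known as REC8, had 4.48 and 5.77 CPM in *sep1 sep2 sep3 SEP3*, 1.00 and 0.983 CPM in the libraries labelled triple mutant and 2.77 and 3.25 CPM in *sep1 sep2*. The genotypes did not overlap, and log2 fold changes were 2.36 ± 0.32 SE in the lines (FDR 0.000137, edgeR) and -1.60 ± 0.32 in the libraries labelled triple mutant (FDR 0.00308). *SWI1*, which protects cohesion early in meiosis, had 4.05 and 3.99 CPM in *sep1 sep2 sep3 SEP3*, 1.34 and 1.73 CPM in the libraries labelled triple mutant and 3.09 and 2.58 CPM in *sep1 sep2*. It was DE in the lines (log2 fold change 1.38 ± 0.31 SE, FDR 0.00783, edgeR), and its log2 fold change against *sep1 sep2* was -0.88 ± 0.32 (FDR 0.0757). Without the first library labelled triple mutant the FDR of *SWI1* in the lines was 0.0799. *SGO1* and *SGO2*, the shugoshins that guard centromeric cohesion, had log2 fold changes of 0.20 and 0.22 in the lines and -0.15 and 0.11 in the libraries labelled triple mutant, none past the FDR.

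Of the 8 crossover genes, *MSH5* and *ZIP4* were DE in the lines. *MSH5*, of the MutS complex that stabilises recombination intermediates, had 16.2 and 14.4 CPM in *sep1 sep2 sep3 SEP3*, 8.56 and 6.17 CPM in the libraries labelled triple mutant and 9.42 and 11.0 CPM in *sep1 sep2*. Its log2 fold change in the lines was 1.06 ± 0.19 SE (FDR 0.00185, edgeR), just past the fold threshold, and it was 0.84 without the second library labelled triple mutant and 0.97 without line 1. *ZIP4*, a scaffold protein of the same crossover pathway, had 5.53 and 4.92 CPM in *sep1 sep2 sep3 SEP3*, 1.75 and 2.44 CPM in the libraries labelled triple mutant and 2.38 and 5.41 CPM in *sep1 sep2*. The *sep1 sep2* replicates of *ZIP4* were apart, the first within the range of the libraries labelled triple mutant and the second within that of the lines. *ZIP4* was higher in the lines (1.31 ± 0.36, FDR 0.0252), a call held in 6 of 11 other settings with FDR values between 0.0101 and 0.197.

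The partner of MSH5, *MSH4*, had a log2 fold change of 0.78 in the lines (FDR 0.0857), and the helicase gene *MER3* one of 0.81 ± 0.23 SE (FDR 0.0298, edgeR). *MER3* had 12.8 and 9.39 CPM in *sep1 sep2 sep3 SEP3*, 5.72 and 6.92 CPM in the libraries labelled triple mutant and 6.69 and 4.997 CPM in *sep1 sep2*. Both lines lay above the 4 other libraries, which overlapped with one another. *MER3* passed the FDR in the lines over the libraries labelled triple mutant in 6 of 11 other settings. *SHOC1* and *HEI10*, of the same pathway, had log2 fold changes of 0.78 and 0.60 in the lines and of -0.45 and -0.35 in the libraries labelled triple mutant, and *MLH3*, of crossover resolution, had 0.23 and 0.13, none past the FDR.

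**Figure D3:**
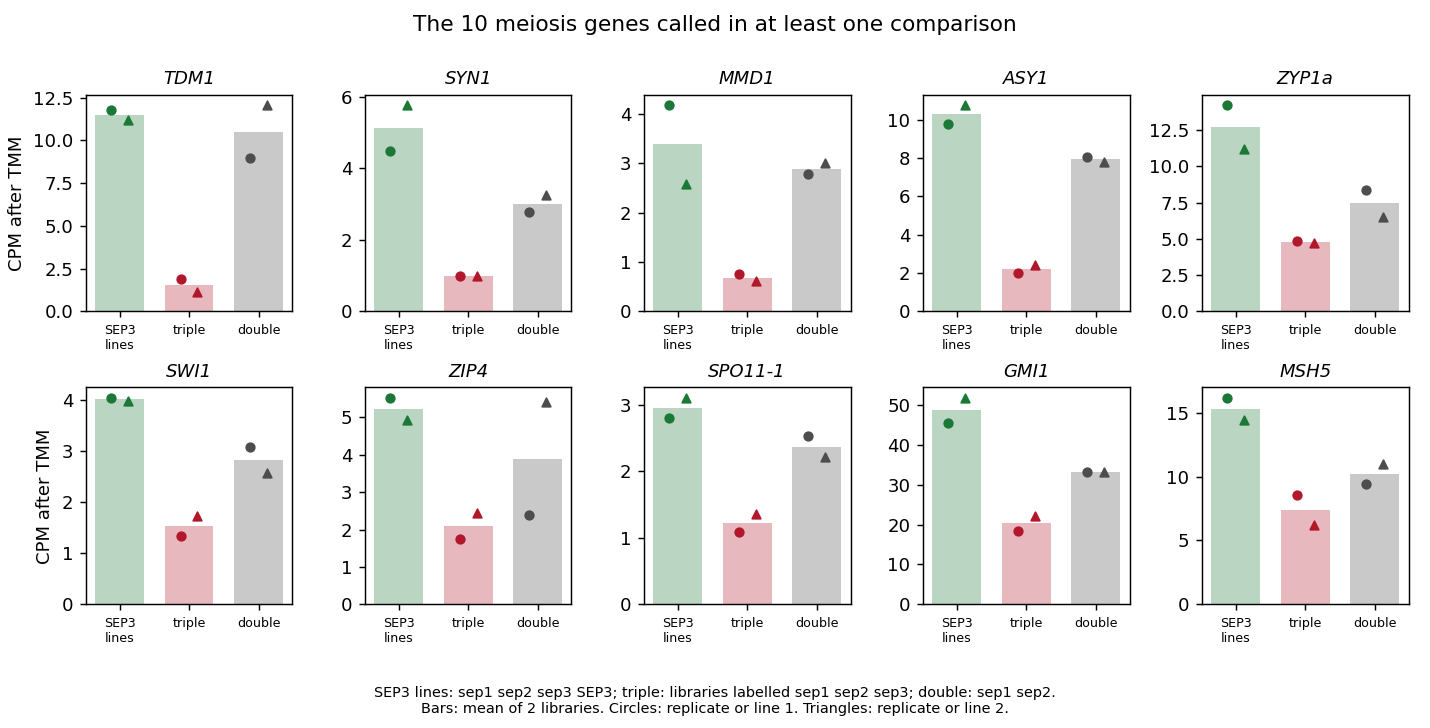
CPM after TMM normalization of the 10 meiosis genes that were DE in at least one comparison, with bars for the mean of 2 libraries and points for single libraries. Genes are ordered by their log2 fold change in *sep1 sep2 sep3 SEP3* over the libraries labelled triple mutant, and *TDM1* has 11.8 and 11.2 CPM in the lines, 1.92 and 1.12 in the libraries labelled triple mutant and 8.95 and 12.1 in *sep1 sep2*.

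Among regulators of the meiotic cell cycle, *TDM1* and *MMD1* had the largest changes of all 42 members in the libraries labelled triple mutant relative to *sep1 sep2*. *TDM1*, which is needed to leave meiosis after the second division, had 11.8 and 11.2 CPM in *sep1 sep2 sep3 SEP3*, 1.92 and 1.12 CPM in the libraries labelled triple mutant and 8.95 and 12.1 CPM in *sep1 sep2*. Its log2 fold changes were 2.93 ± 0.27 SE in the lines (FDR 3.51e-06, edgeR) and -2.80 ± 0.27 in the libraries labelled triple mutant (FDR 5.53e-06). *TDM1* shares 457 bases with the tubulin gene *TUB9* (AT4G20890) on the opposite strand, and the counting is not stated to use strand. *TUB9* had 142 and 138 CPM in *sep1 sep2 sep3 SEP3*, 140 and 117 CPM in the libraries labelled triple mutant and 168 and 189 CPM in *sep1 sep2*, with log2 fold changes of 0.13 (FDR 0.618) and -0.48 (FDR 0.0114) for the lines and for the libraries labelled triple mutant.

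*MMD1*, a PHD-finger protein gene of male meiocytes also named DUET, had 4.18 and 2.58 CPM in *sep1 sep2 sep3 SEP3*, 0.752 and 0.610 CPM in the libraries labelled triple mutant and 2.77 and 2.998 CPM in *sep1 sep2*. The libraries labelled triple mutant lay below the rest, with log2 fold changes of 2.32 ± 0.38 SE in the lines (FDR 0.00079, edgeR) and -2.08 ± 0.38 relative to *sep1 sep2* (FDR 0.00158). *TDM1*, *MMD1*, *ASY1* and *SYN1* were called in both comparisons under all 11 other settings tried. *SDS*, a meiotic cyclin, was higher in the lines by FDR alone (log2 fold change 0.93, FDR 0.00741), and *TAM*, an A-type cyclin, was lower in the libraries labelled triple mutant by FDR alone (-0.59, FDR 0.045), in 1 of 11 other settings as well. *OSD1*, which restrains the anaphase-promoting complex in meiosis and mitosis, had 17.1 to 20.6 CPM over the 6 libraries and passed no threshold.

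The 4 genes for spindle orientation, motor function and cytokinesis had small changes. *JASON*, which acts on spindle position in the second male meiotic division, had 22.8 and 22.3 CPM in *sep1 sep2 sep3 SEP3*, 13.95 and 15.5 CPM in the libraries labelled triple mutant and 22.02 and 24.2 CPM in *sep1 sep2*. It passed the FDR alone in both comparisons (log2 fold changes 0.62 ± 0.13 SE, FDR 0.006, and -0.65 ± 0.13, FDR 0.00355, edgeR). *PS1*, which acts with *JASON* in spindle position, was higher in the lines by FDR alone (0.46, FDR 0.0309), in 6 of 11 other settings as well. The kinesins *TES* and *ATK1*, of male meiotic cytokinesis and spindle formation, had log2 fold changes of 0.34 and 0.05 in the lines and -0.24 and 0.08 in the libraries labelled triple mutant. The unnamed locus AT1G12790 had 6.14 and 6.13 CPM in *sep1 sep2 sep3 SEP3*, 4.14 and 2.48 CPM in the libraries labelled triple mutant and 4.71 and 5.33 CPM in *sep1 sep2*, and was higher in the lines by FDR alone (0.90, FDR 0.0449), in 2 of 11 other settings as well. AT1G60460 had 3.19 and 3.51 CPM, 2.42 and 1.56 CPM, and 2.53 and 3.58 CPM in the same order and passed no threshold.

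The members known mainly for meiosis, 28 of the 42, held 9 of the 10 calls in the lines and all 4 in the libraries labelled triple mutant. In the lines, 9 of the 28 were DE and higher, against 5.74% of all genes, and their median log2 fold change was 0.74. Of the 5 that also act in somatic repair 1 was DE (*GMI1*) with a median of 0.26, and of the 7 of cell division 0 were DE (3 at an unadjusted p under 0.05 in edgeR, 0 in DESeq2) with a median of 0.23. In the libraries labelled triple mutant relative to *sep1 sep2*, 4 of 28 were DE and lower, against 7.30% of all genes, with a median of -0.48. None of the 5 somatic repair genes and none of the 7 division genes was DE (1 of each at an unadjusted p under 0.05 in edgeR, 0 in DESeq2), with medians of -0.07 and -0.15. Classes of 5 and 7 genes are too small to set 0 or 1 calls apart from the shares of all genes. The 7 also include genes of male meiosis such as *JASON* and *TES*. The classes were not tested against each other. The 28 were not uniform, since *ASY3*, *PCH2*, *HOP2*, *PRD3* and *MLH3* had log2 fold changes between 0.02 and 0.23 in the lines.

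*sep1 sep2 sep3 SEP3* and *sep1 sep2* were compared as well, since both have a source of *SEP3*. None of the 42 members was DE (0 in DESeq2, 10 at an unadjusted p under 0.05 in edgeR, all higher in the lines), against 0.365% of all genes DE and higher and 1.14% DE and lower. By FDR alone 3 were higher in the lines, *MER3* (log2 fold change 0.93 ± 0.23 SE, FDR 0.0375, edgeR), *ZYP1b* (0.73 ± 0.19, FDR 0.0441) and *GMI1*, which was 7.14% of the members against 1.39% of all genes. Over the 11 other settings, *MER3* passed the FDR in 3 (0.0278 to 0.277), *ZYP1b* in 2 (0.0265 to 0.186) and *GMI1* in 6. The log2 fold change was above 0 for 38 of 42, with a median of 0.28 beside -0.01 over all genes. Both lines were above both *sep1 sep2* libraries for 26 members (61.9%), against 21.8% of all genes and 23.5% of genes in the same range of levels, and below both for none. The 4 genes called in both other comparisons had log2 fold changes of 0.13 ± 0.23 (*TDM1*), 0.23 ± 0.34 (*MMD1*), 0.37 ± 0.21 (*ASY1*) and 0.76 ± 0.29 (*SYN1*), with FDR values of 0.177 or more. Without line 2, *MER3* was DE (1.13, FDR 0.0462).

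The 2 lines were close to each other for most members. The log2 ratio of line 2 over line 1 lay between -0.69 (*MMD1*) and 0.36 (*SYN1*), with a median of -0.06, and 29 members were lower and 13 higher in line 2. No member differed between the lines by more than 1 on this scale. The median of 12 tapetum markers was -0.68 and that of 5 genes listed for the ovule -0.73. The lines have one library each, so these ratios carry no test.

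Per kilobase of exon, where levels of different genes can be set side by side, *DMC1* had 25.9 CPM per kilobase in *sep1 sep2 sep3 SEP3*, 16.01 in the libraries labelled triple mutant and 22.6 in *sep1 sep2*. It was the most abundant member in *sep1 sep2 sep3 SEP3* and *sep1 sep2*, whereas *SGO2* (20.04) and *ATK1* (17.2) were above it in the libraries labelled triple mutant. *SPO11-2* was the least abundant in *sep1 sep2 sep3 SEP3* and *sep1 sep2*, with 0.502 and 0.517 CPM per kilobase. *ASY3* had 9.66, 9.52 and 8.59 CPM per kilobase, and *ASY1* 4.79, 1.04 and 3.70 in the order *sep1 sep2 sep3 SEP3*, libraries labelled triple mutant, *sep1 sep2*. *MMD1* had 1.35, 0.273 and 1.16 CPM per kilobase in this order and was the scarcest member in the libraries labelled triple mutant.

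Other genes of meiosis and recombination, 41 in all and for the most part active in dividing or damaged somatic cells too, had small changes. None of the 41 was DE in any comparison in edgeR or DESeq2. In the lines over the libraries labelled triple mutant, 7 had an unadjusted p under 0.05, all higher, 2 passed the FDR (*WAPL2*, which removes cohesin, and AT2G33793), and the median log2 fold change was 0.12. In the libraries labelled triple mutant over *sep1 sep2* the median was 0.05, with 10 higher and 2 lower at an unadjusted p under 0.05. There 5 passed the FDR as higher, the cohesin gene *SMC1*, the repair genes *BRCA2A*, *FANCM* and *TOP3A* and the damage kinase gene *ATM*, and 2 as lower, AT2G33793 and the replication protein gene *RPA1A*. In the lines over *sep1 sep2*, 15 had an unadjusted p under 0.05, all higher, and 4 passed the FDR (*SMC1*, *FANCM*, *ATM* and the separase gene *AESP*). By FDR alone, 7.30% of all genes were higher in the lines over the libraries labelled triple mutant and 1.39% in the lines over *sep1 sep2*. In the libraries labelled triple mutant 10.0% were lower, and the share that was higher is not given here. Shares of all genes at an unadjusted p under 0.05 are not given here for any comparison. The 10 genes of mitotic division had median log2 fold changes of 0.06 in the lines and -0.03 in the libraries labelled triple mutant, and 0 were DE (1 higher at an unadjusted p under 0.05 in the lines, 1 higher and 1 lower in the libraries labelled triple mutant, DESeq2 0 in both). Of the 6 DNA damage response genes 0 were DE (0 at an unadjusted p under 0.05 in these 2 comparisons, DESeq2 0).

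Markers of other cell types in the flower were read beside the meiosis genes. All 12 tapetum markers, of the anther layer that feeds the meiocytes, were DE and lower in the libraries labelled triple mutant (median log2 fold change -3.74) and DE and higher in the lines (median 3.42). Their summed level was 2731 and 1560 CPM in *sep1 sep2 sep3 SEP3*, 230 and 164 CPM in the libraries labelled triple mutant and 2448 and 2985 CPM in *sep1 sep2*. Of 5 early anther genes, *SPL*, needed to form the sporogenous cells of anther and ovule, and *ROXY2*, a glutaredoxin gene of anther lobes, were DE in both comparisons. *SPL* had 17.3 and 17.7 CPM in *sep1 sep2 sep3 SEP3*, 2.76 and 2.58 CPM in the libraries labelled triple mutant and 11.998 and 14.4 CPM in *sep1 sep2*. The 3 others were not DE in either comparison. *ROXY1*, a glutaredoxin gene related to *ROXY2*, had 6.51 and 6.21 CPM in *sep1 sep2 sep3 SEP3*, 11.03 and 10.9 CPM in the libraries labelled triple mutant and 7.13 and 8.16 CPM in *sep1 sep2*. It was lower in the lines by FDR alone (log2 fold change -0.78 ± 0.19 SE, FDR 0.013, edgeR), and its log2 fold change in the libraries labelled triple mutant relative to *sep1 sep2* was 0.52 (FDR 0.0824). *TPD1*, of the ligand that specifies the tapetum, had log2 fold changes of -0.43 in the lines (FDR 0.345) and 0.55 in the libraries labelled triple mutant (FDR 0.156). *EMS1*, its receptor kinase, had 103 and 116 CPM in *sep1 sep2 sep3 SEP3*, 66.1 and 68.7 CPM in the libraries labelled triple mutant and 76.9 and 81.7 CPM in *sep1 sep2*, was higher in the lines by FDR alone (0.70, FDR 0.000412) and made up most of the summed level of the 5, which was 137 and 154 CPM, 87.4 and 89.1 CPM, and 106 and 118 CPM in the same order.

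Of 5 genes listed for the ovule 4 were DE and lower in the libraries labelled triple mutant (3 in DESeq2) and 3 DE and higher in the lines (3 in DESeq2). Among them, *STK*, *SHP1* and *SHP2* were DE in both comparisons. *STK* had log2 fold changes of -6.99 in the libraries labelled triple mutant (FDR 3.61e-06) and 6.43 in the lines (FDR 8.95e-06, edgeR). The study names *SHP2* as a gene of the fourth whorl, so the list is not particular to the ovule. Summed levels were 40.4 and 24.0 CPM in *sep1 sep2 sep3 SEP3*, 18.4 and 15.4 CPM in the libraries labelled triple mutant and 39.3 and 37.1 CPM in *sep1 sep2*. *STK*, the ovule identity MADS gene, had 0.00 and 0.136 CPM in the libraries labelled triple mutant, and *INO*, of the outer integument, had no counts there, none in line 2 and at most 0.921 CPM elsewhere, with an FDR of 0.0429 in the libraries labelled triple mutant. *BEL1*, an ovule homeobox gene, had log2 fold changes of 0.15 in those libraries and -0.15 in the lines, neither past the FDR. With 15.3 and 13.2 CPM, *BEL1* made up most of the summed level in the libraries labelled triple mutant. The 3 pollen germ line genes summed to between 0.746 and 2.22 CPM in all 6 libraries, with *DUO1* and *MGH3* at or near 0 throughout. The part of these cell types in the levels of the meiosis genes was not tested.

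**Figure D4:**
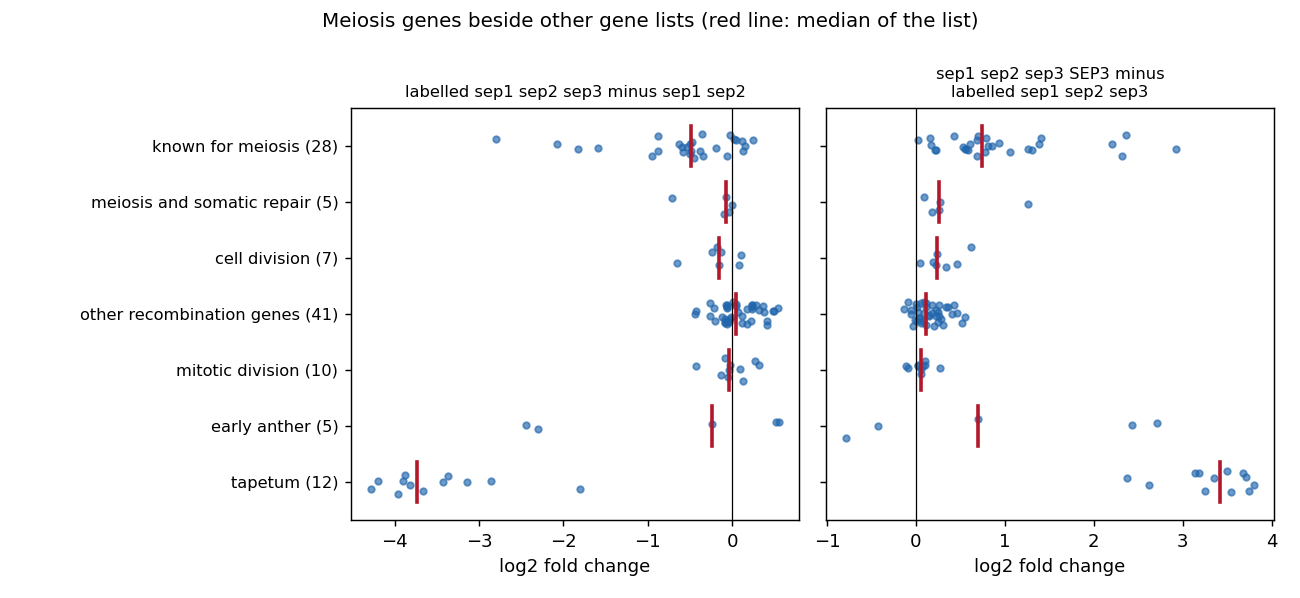
Log2 fold changes of the meiosis genes by class beside other gene lists, left for the libraries labelled triple mutant over *sep1 sep2* and right for *sep1 sep2 sep3 SEP3* over the libraries labelled triple mutant. Each point is a gene, the red line is the list's median and the number of genes is in brackets. Medians of the tapetum markers lie at -3.74 and 3.42, those of the 28 genes known for meiosis at -0.48 and 0.74, and those of 41 other recombination genes at 0.05 and 0.12.

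The annotation limits some of these values. In TAIR10.1, 21 of the 42 members overlap another annotated gene by at least 1 base. The overlap was 1446 bases for *HEI10*, 1151 for *HOP2*, 999 for *PRD1*, 524 for *MER3* and 461 for *SPO11-2*, each on the opposite strand. *PRD2* shared 524 bases with a gene on the same strand. Beyond default parameters, the handling of reads in an overlap is not stated, so these levels may lose or gain reads there. Of the 10 DE members, *MMD1*, *SWI1*, *ZIP4* and *MSH5* overlap no annotated gene.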

How the data were processed

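Inflorescence RNA-seq counts of 6 libraries, 2 per genotype, were used. The authors mapped read pairs to TAIR10 with STAR, without multimapping reads, and counted reads per gene with FeatureCount at default parameters. Versions are not given in the sources used here. They deposited raw counts per gene without normalization. Their comparison tables (log fold changes, p-values and FDR) and the wild-type libraries were not used here.

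The 25458 genes with a count were fitted with edgeR 4.0.16 and limma 3.58.1 (R 4.3.3) in one model, with genotype means and all 6 libraries, after TMM normalization, with a prior count of 0.125. Tests were quasi-likelihood tests with Benjamini-Hochberg FDR over all genes. Each edgeR standard error (SE) was derived as the size of the log2 fold change over the square root of the F statistic. DE followed the study's thresholds, an FDR under 0.05 and a log2 fold change beyond 1 in either direction. The script was tested on simulated data. Alternatives were RLE size factors, DESeq2 1.42.0, edgeR's filterByExpr, a replicate block, FDR alone, the compared genotypes only and leaving out each library. Library totals set the error of counting, which is larger for scarce members.

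The members and lists were chosen with earlier results of these data known. Values in every library are given for members that were DE, that also act in somatic repair, and for *DMC1*, *ZYP1a* and *ZYP1b*. The values of 2 members are not reported here, although all counts include them. *MER3*, *JASON* and the unnamed loci were added after their values were seen. Exon lengths, overlaps and promoters come from RefSeq on TAIR10.1.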

Additional observations from a re-analysis of the deposited data

How the results depend on the processing

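Counts of DE members kept to 4 in the libraries labelled triple mutant over *sep1 sep2* under RLE size factors, DESeq2, filterByExpr, the replicate block and the compared genotypes only, and to 9 or 10 in *sep1 sep2 sep3 SEP3* over the libraries labelled triple mutant. With the FDR alone they were 8, 18 and, for *sep1 sep2 sep3 SEP3* over *sep1 sep2*, 3, of which none kept the FDR in all 11 other settings. Leaving out single libraries gave 4 to 5, 7 to 10 and 0 to 1 members, where the 1 was *MER3* without line 2. Without the first *sep1 sep2* replicate, *ZIP4* was also DE in the libraries labelled triple mutant (-1.35, FDR 0.0219). In the lines over the libraries labelled triple mutant, *SPO11-1* and *ZIP4* lost the call without any one of these 4 libraries, *MSH4* and AT1G12790 gained it without the first library labelled triple mutant, *SDS* without the second and *MER3* without line 2. Replicate numbers did not pair the libraries (correlations of deviations -0.085, -0.034 and 0.05 over 18703 genes). The replicate block gave 4, 9 and 0 members and only *SPO11-1* in the lines lost its call (FDR 0.0571). Under filterByExpr only *ZIP4* in the lines did (FDR 0.0717). In *sep1 sep2 sep3 SEP3* over *sep1 sep2*, where no member was DE, signs turned for *ZIP4* and *TDM1* without the first *sep1 sep2* replicate and for *MMD1* without line 1. Leaving out single libraries gave log2 fold changes there of -0.0351 to 1.14 (*ZIP4*), -0.0599 to 0.358 (*TDM1*) and -0.160 to 0.534 (*MMD1*). The cause was not tested.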
